A study of Mus musculus with 27 samples.

Results

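The genes described here are the collagen chains, the 44 genes of 24825 in the deposited tables whose symbol has the form Col, a number, a and a number. The rule uses the name of a gene and none of its values, although this family was picked for description with earlier results of these data known. The cells were C2C12, an established mouse myoblast line, and the 3 constructs were taken through the same protocol. Adipogenic differentiation was started at confluence with isobutylmethylxanthine, indomethacin, dexamethasone, insulin, T3 and rosiglitazone, of which the last 3 were kept on, and day 0 and day 7 are days of this differentiation. Control cells, cells with retrovirally introduced full-length NFIA (nuclear factor I-A, a transcription factor) and cells with retrovirally introduced Δpro#3 mutant, which lacks the C-terminal end of NFIA, were each sequenced on day 0 and on day 7, the latter both untreated and after 4 h of forskolin at 10 µM. Forskolin activates adenylyl cyclase and raises cAMP. There were 3 replicates in each of the 9 groups, 27 libraries of polyadenylated RNA in all. Both proteins carried a FLAG tag and were expressed from a retrovirus in a line that has little Nfia of its own. The labels do not say that the replicates were separate cultures, so the p-values measure the spread between these samples, which may be technical.

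Collagens are secreted proteins in which 3 chains wind into a triple helix. Fibril-forming collagens (types I, II, III, V and XI, with XXIV and XXVII) build the banded fibers of connective tissue, type IV builds the sheet of the basement membrane, and type VI builds beaded filaments around cells. The fibril-associated collagens decorate fibers, and the multiplexins lie in basement membranes. In muscle, fibroblasts are the main source of collagen, and basement membrane surrounds each muscle fiber. Adipocytes are also encased in a basement membrane, and type VI collagen is a prominent part of adipose matrix.

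Values are FPKM, which divide the fragments of a gene by its length and by the depth of the library, so they can be set side by side between genes. The depth ranged from 9567769 to 27230965 fragments per library. Nfia had group means between 0.143 and 2.80 FPKM in control cells and, at day 0, day 7 and after forskolin, of 242, 482 and 539 FPKM in NFIA-expressing cells and of 406, 413 and 294 FPKM with the mutant. The control mean at day 0 came from replicate 2, at 7.35 FPKM of Nfia against 0.879 and 0.175 in the other two. Without it, 23 and 20 chains differed from control at day 0 with NFIA and the mutant (limma, adjusted p under 0.05), as many as with it. Myod1, which defines myoblasts, was at 16.8 FPKM or more in every library. Together, 5 myoblast markers (Myod1, Myf5, Des, Cdh15 and Msc) summed at day 0 to 658 to 667 FPKM in control, 147 to 156 with NFIA and 428 to 441 with the mutant. With NFIA at day 0 all 5 were lower than control (limma, adjusted p under 0.05), 4 of them more than 3-fold. With the mutant 4 were lower, 0 of them more than 3-fold. At day 7 the sums were 726 to 832, 259 to 327 and 1040 to 1167 FPKM. The summed FPKM of 6 myotube markers (Myog, Acta1, Ckm, Mylpf, Tnnt3 and Myh3) was 9270.2 to 10793 in control, 1556 to 2119 in NFIA-expressing and 10369 to 10797 in mutant-expressing libraries at day 7. For 6 adipocyte markers (Pparg, Fabp4, Adipoq, Plin1, Cidec and Lpl) it was 335 to 371, 13268 to 14750.1 and 602 to 1992, and for 5 fibroblast markers (Pdgfra, Thy1, Dcn, Lum and Tcf21) 126 to 153, 204 to 235 and 590.4 to 894, in the same order. At day 7 most of the fibroblast sum was Dcn (group means of 128, 208 and 691 FPKM), while Tcf21 was listed at 0 in all 27 libraries and Thy1 was at 0.152 FPKM or less. The 5 osteoblast markers summed to 6.15 to 7.50, 22.0 to 24.9 and 13.7 to 15.9 FPKM at day 7, with Bglap, which is made by osteoblasts, at 0.389, 20.2 and 10.9 FPKM on average. Runx2, another of the 5, went the other way, at 6.50, 3.41 and 3.74 FPKM. Group means of Sp7, Ibsp and Dmp1 were at most 0.208 FPKM at day 7. Over all 9 groups the sums ran from 2.02 to 26.6 for 4 macrophage markers and from 0.0758 to 1.43 for 4 endothelial markers. Replicate 1 stood apart from the other 2 with the mutant at day 7 and with the mutant and NFIA after forskolin, where the chi-square between its fragment counts and theirs was 11.9 to 15.0 per gene, against 1.54 to 6.64 in all other pairs of replicates. With the mutant it had the highest adipocyte marker sum of its group at day 7, and so had replicate 1 after forskolin (886 against a lowest sum of 535). The part of these cell types in the results below was not tested.

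Of the 44 chains, 30 passed the filter of a mean of 0.5 FPKM in at least 1 of the fits and 22 in every fit. The other 14 never passed it: Col4a3, Col4a4, Col4a6, Col6a4, Col6a5, Col6a6, Col9a1, Col9a2, Col9a3, Col10a1, Col13a1, Col17a1, Col22a1 and Col26a1. They held 4 to 803 fragments each over all 27 libraries, and the highest value of any of them in any library was 0.836 FPKM, for Col17a1. Differences in them were not tested. Some of the others passed a fit only through 1 high group, so that a difference from that group was built into the filter: Col2a1 and Col8a2 at day 0 and Col23a1 at day 7 and after forskolin through NFIA, Col24a1 at all 3 times and Col25a1 at day 7 and after forskolin through control, and Col19a1 at day 7 and after forskolin through the mutant. Col2a1 and Col8a2 passed the fit of day 7 against day 0 in the same way, as did Col23a1. In the fit of forskolin responses it held for Col24a1 and Col25a1 through untreated control, Col23a1 through untreated NFIA and Col19a1 through the forskolin-treated mutant. Counts that include these chains, and their differences from the high group, are given as descriptions. A few chains carried nearly all of the signal. Pooled over the 27 libraries, Col3a1 held 28.3% and Col1a2 held 19.1% of all collagen fragments, although Col1a2 held more than Col3a1 with both constructs at day 0, and 11 chains together held 95.7%. Those 11 were Col1a1, Col1a2, Col3a1, Col4a1, Col4a2, Col5a1, Col5a2, Col6a1, Col6a2, Col6a3 and Col12a1.

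Collagen chains took the largest share of the RNA at day 0 in NFIA-expressing cells. There, 3.13% ± 0.0400 (SD, n = 3) of all fragments came from collagen genes, against 2.20% ± 0.0168 in control and 2.27% ± 0.00814 in Δpro#3 mutant-expressing cells. On day 7 the share was 1.71% ± 0.0363 in NFIA-expressing, 1.46% ± 0.0890 in control and 1.22% ± 0.110 in Δpro#3 mutant-expressing cells. After forskolin it was 1.42% ± 0.0336, 1.46% ± 0.115 and 1.18% ± 0.0276, respectively. Cell type markers moved as well at day 0: the myotube marker sum was 892 to 971 FPKM in control, 5.78 to 7.24 in NFIA-expressing and 56.6 to 65.5 in mutant-expressing libraries, that of adipocyte markers 33.9 to 41.3, 391 to 425 and 302 to 321, and that of fibroblast markers 123 to 133, 80.2 to 101 and 57.1 to 57.8, while Pdgfra among the last was at 4.41, 22.5 and 12.9 FPKM on average. The sum of 5 osteoblast markers was 8.11 to 9.03, 18.3 to 21.8 and 9.35 to 9.63 FPKM and that of 5 cartilage markers 11.1 to 12.2, 56.7 to 61.5 and 14.1 to 15.5, so that both were highest with NFIA, as was the collagen share. The part of these markers in the collagen share was not tested. Among the 9 comparisons of the share between constructs within a time point, the libraries of the groups overlapped only between forskolin-treated NFIA-expressing and control cells. The 2-sided exact permutation test of 3 against 3 libraries cannot go below p = 0.1, which the other 8 reached (0.125 after Benjamini-Hochberg adjustment over 15 comparisons). For the overlapping pair the exact p was 0.7. In RNA from whole cultures, fewer cells of a type and less RNA per cell cannot be told apart.

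The makeup of the collagen RNA also differed. Col1a1, Col1a2 and Col3a1, the chains of types I and III, held 63.3% ± 0.665 of the collagen fragments of control cells at day 0 and 60.4% ± 1.29 at day 7. In NFIA-expressing cells they held 54.5% ± 0.221 at day 0, 31.3% ± 1.47 at day 7 and 28.9% ± 1.70 after forskolin. The Δpro#3 mutant-expressing cells had 58.6% ± 0.331, 52.8% ± 0.679 and 53.9% ± 2.23. As a share of all fragments, the basement membrane chains stood between 0.296% and 0.315% in the NFIA-expressing libraries at day 7, against 0.0923% to 0.0994% in the control libraries and 0.133% to 0.179% in the mutant libraries. At day 0 the order was different, with 0.0827% to 0.0896% in the NFIA-expressing, 0.110% to 0.116% in the control and 0.0950% to 0.0970% in the mutant libraries.

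**Figure D1:**
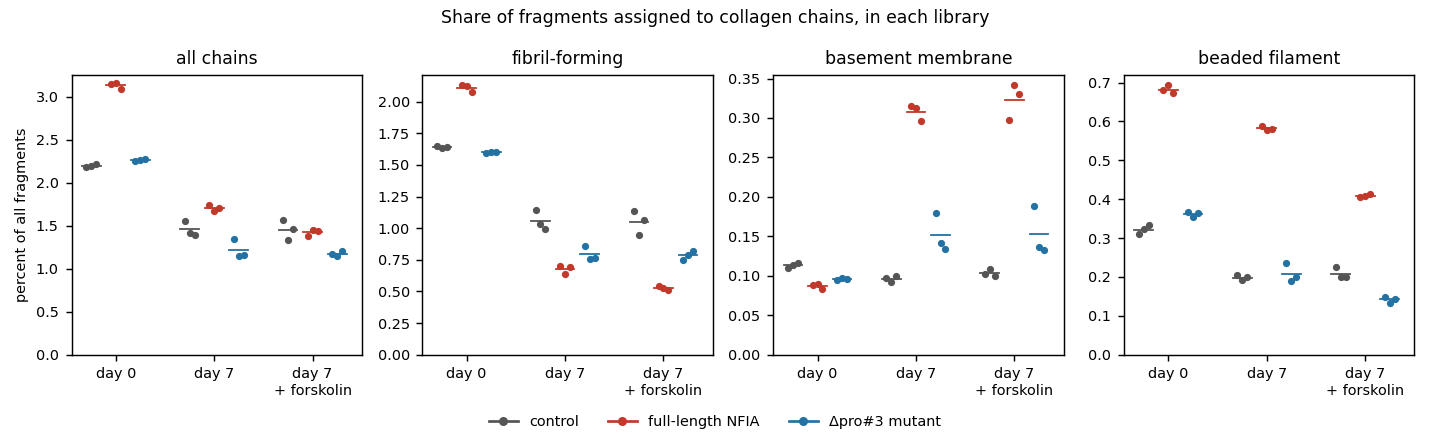
Percent of all fragments (y axis) assigned to the 44 collagen chains and to 3 of their classes in each library, by time point (x axis); points are libraries, lines are means of 3. At day 7 the NFIA-expressing libraries (red) lie lowest in the fibril-forming panel and highest in the basement membrane and beaded filament panels.

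Each comparison was fitted over all genes with limma on log2(FPKM + 1), and log2 differences below are on that scale, which understates the change of low genes, and are given ± SE. A chain is said to rise, fall or differ where its Benjamini-Hochberg adjusted p was under 0.05, and is called more than 3-fold changed where it also differed over 3-fold in FPKM + 1. With NFIA at day 0, 15 of the 25 chains tested rose and 8 fell, where 37.7% of all 12105 genes tested rose and 35.6% fell. The median log2 difference of the chains was 0.52, against 0.0083 over all genes. Of the chains, 7 rose and 1 fell more than 3-fold (background 2.46% and 2.78%). The 7 were Col11a1, Col2a1, Col14a1, Col6a2, Col8a2, Col6a1 and Col12a1, and the 1 was Col18a1. Of the 7, Col2a1 and Col8a2 passed the filter through the NFIA libraries alone. With the Δpro#3 mutant at day 0, 12 rose and 8 fell (background 32.5% and 29.7%, median 0.15 against 0.0095 over all genes), and 2 rose and 1 fell more than 3-fold (background 0.859% and 1.32%), namely Col14a1, Col28a1 and Col18a1.

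At day 7, NFIA-expressing cells had 11 chains higher and 12 lower than control of the 27 tested (background 31.3% and 41.1%), and 6 were higher and 1 lower by more than 3-fold (background 4.87% and 3.3%). Those were Col15a1, Col5a3, Col6a2, Col4a1, Col23a1 and Col14a1, and Col1a1, of which Col23a1 passed the filter through the NFIA libraries alone. The number below control depends on the added 1 FPKM: with a pseudocount of 0.1 and with limma-voom alike, 6 were higher and 6 lower by more than 3-fold. The median log2 difference was -0.085 over the chains and -0.080 over all genes. With the Δpro#3 mutant, 9 were higher and 12 lower (background 21.3% and 27.5%, median -0.034 against -0.037 over all genes), 1 in each direction by more than 3-fold (background 0.933% and 0.503%), Col5a3 and Col11a1, which became 5 chains with a pseudocount of 0.1 and 6 with limma-voom. After forskolin, NFIA-expressing cells had 9 higher and 16 lower (background 25.5% and 47%), 4 and 3 of them by more than 3-fold (background 4.25% and 3.77%), Col15a1, Col5a3, Col6a2 and Col4a1 upwards and Col1a1, Col11a1 and Col16a1 downwards, which became 6 and 7 with either alternative. The Δpro#3 mutant-expressing cells had 7 higher and 14 lower (background 19.5% and 27.1%), 1 and 2 by more than 3-fold (background 0.866% and 0.685%), Col5a3 upwards and Col11a1 and Col1a1 downwards (5 chains in all with a pseudocount of 0.1 and 6 with limma-voom), with a median of -0.21 against -0.041 over all genes. Between forskolin-treated NFIA-expressing and control cells the median was -0.37 over the chains and -0.17 over all genes. A median-ratio scaling moved the log2 differences of all genes by a median of 0.17 there, and then 10 chains were higher and 14 lower.

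Set directly against NFIA, the mutant gave no chain that was more than 3-fold higher with limma at any of the 3 time points (background 0.925%, 2.6% and 2.89%), although 23, 24 and 23 chains had an unadjusted p under 0.05 in 1 direction or the other. With limma-voom, which adds no whole FPKM to low chains, 2 chains were more than 3-fold higher with the mutant at day 0, 4 at day 7 and 5 after forskolin. At day 0, 9 chains were higher and 14 lower than with NFIA (background 33.4% and 31.9%, median -0.16 against 0.0089 over all genes), and 4 were more than 3-fold lower (background 1.12%): Col2a1, Col11a1, Col8a2 and Col6a2, of which Col2a1 and Col8a2 had passed the filter through the NFIA libraries alone. At day 7, 10 were higher and 13 lower (background 34.3% and 29.4%, median -0.11 against 0.035 over all genes), and Col15a1, Col6a2, Col6a1 and Col23a1 were more than 3-fold lower (background 3.7%). Here Col23a1 had passed the filter through the NFIA libraries alone. After forskolin, 13 were higher and 9 lower (background 42% and 24.2%, median 0.17 against 0.12 over all genes), which became 10 and 11 with the median-ratio scaling, and Col15a1, Col6a2 and Col6a1 were more than 3-fold lower (background 3.31%). These comparisons share libraries with those against control.

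**Figure D2:**
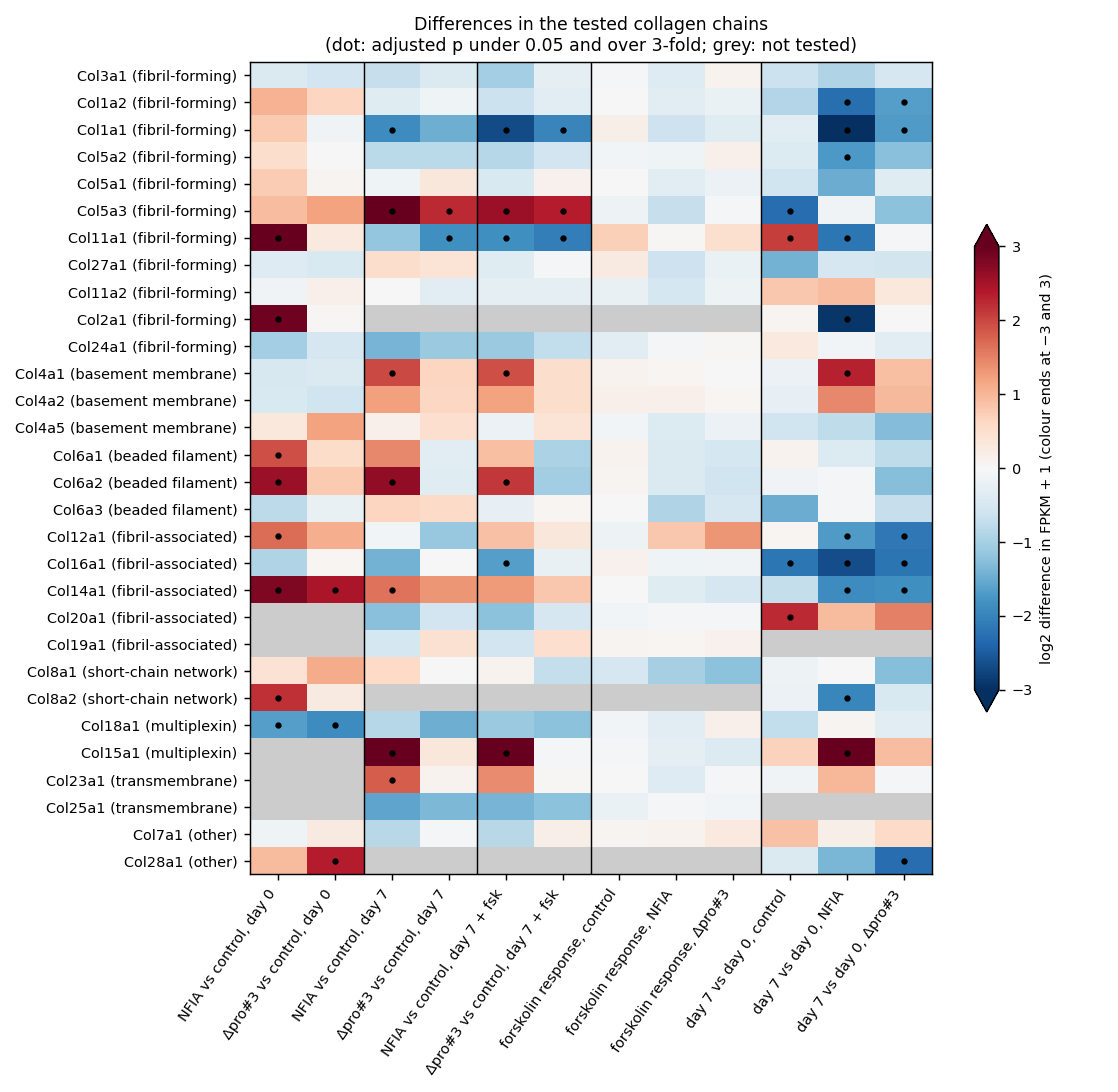
Log2 difference in FPKM + 1 (color) of the 30 chains tested in at least 1 fit (rows, by class) for 12 comparisons (columns); black dots mark more than 3-fold changes with an adjusted p under 0.05, and gray cells were not tested. The color ends at 3, so that Col15a1 with NFIA at day 7, at 5.52, and Col5a3, at 3.11, have the same red, and the 3 forskolin response columns hold no dot.

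Type I collagen is made of 2 chains from Col1a1 and 1 from Col1a2. Both were higher with NFIA before differentiation and lower after it. At day 0, Col1a1 (chromosome 11) stood at 261, 281 and 285 FPKM in the control libraries, at 486, 467 and 470.2 with NFIA and at 257, 256 and 252 with the mutant. At day 7 its values were 231, 203 and 216, 65.9, 45.0 and 64.5 and 97.6, 76.0 and 64.6, in the same order. The NFIA libraries were all above control at day 0 and all below it at day 7, and the mutant libraries were below control at both. The log2 difference between NFIA-expressing and control cells was 0.78 ± 0.04 at day 0 (adjusted p = 8.3e-09) and -1.89 ± 0.16 at day 7 (adjusted p = 2.5e-06). With the mutant it was -0.11 ± 0.04 at day 0, a fall whose adjusted p of 0.022 became 0.51 when all 27 samples were fitted together and 0.081, 0.086 and 0.071 without control replicate 2, control replicate 3 or mutant replicate 3, and -1.46 ± 0.16 at day 7. After forskolin, Col1a1 stood at 269, 228 and 241 FPKM in control cells, 45.9, 34.4 and 32.9 with NFIA and 65.8, 57.8 and 59.8 with the mutant, and both constructs had it more than 3-fold lower than control (-2.68 and -1.99 on the log2 scale).

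Col1a2 (chromosome 6) was at 743, 763 and 752 FPKM in control cells at day 0, at 1543, 1539.7 and 1539.9 with NFIA and at 1175, 1193 and 1188 with the mutant. The 3 groups were in separate ranges, and both constructs raised it, by 1.03 ± 0.03 and 0.65 ± 0.03. At day 7 the control libraries held 449.8, 402 and 385 FPKM, the NFIA libraries 342, 294 and 331 and the mutant libraries 426, 346 and 363. NFIA-expressing cells were lower (-0.35, adjusted p = 0.0060), while the mutant libraries overlapped control (-0.13, adjusted p = 0.29). After forskolin the values were 437, 376 and 414 in control, 276, 253 and 253 with NFIA and 323, 325 and 339 with the mutant, and both constructs were lower than control (-0.65 ± 0.07 and -0.31 ± 0.07).

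Because type I needs both chains, their ratio was followed as a description. In control cells the ratio of Col1a1 to Col1a2 FPKM was 0.366 ± 0.0138 (SD, n = 3) at day 0 and 0.526 ± 0.0310 at day 7. With NFIA it was 0.308 ± 0.00613 and then 0.180 ± 0.0235, and with the mutant 0.215 ± 0.00346 and then 0.209 ± 0.0274. Every control library had a higher ratio at day 7 than any had at day 0, and every NFIA library a lower one, while the mutant libraries of the 2 days overlapped.

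Type III is a homotrimer of Col3a1, the chain with the highest mean FPKM in 5 of the 9 groups. Col1a2 was higher with both constructs at day 0, and Col6a1 with NFIA at day 7 and after forskolin. It was lower than control with both constructs at every time point. At day 0 it stood at 1542, 1475 and 1494 FPKM in control cells, 1126, 1142 and 1093 with NFIA and 995, 1009 and 1009 with the mutant. At day 7 it was at 1059, 956 and 889.6, 605, 568 and 617 and 753, 680.2 and 702, and after forskolin at 1020.3, 812 and 960.3, 461, 458 and 443 and 713, 776 and 806. No library of either construct reached the control range at any time point. The log2 differences with NFIA were -0.42 ± 0.04, -0.69 ± 0.08 and -1.03 ± 0.09, and those with the mutant -0.58 ± 0.04, -0.44 ± 0.08 and -0.28 ± 0.09. The last had an adjusted p of 0.026, which was 0.053 with the median-ratio scaling and 0.056 without the filter. Without control replicate 1 or 3 or mutant replicate 1 or 2 it was 0.117, 0.086, 0.084 and 0.053. With NFIA at day 0, Col3a1 and both type I chains thus differed from control in opposite directions.

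Type V collagen sits inside type I fibers and sets their width. Its chains Col5a1 (chromosome 2) and Col5a2 (chromosome 1) were both higher with NFIA at day 0. Col5a1 stood at 117, 124 and 123 FPKM in control cells, 213, 210.4 and 197 with NFIA and 132, 128 and 127 with the mutant at day 0. Its values at day 7 were 83.2, 75.7 and 79.6, 73.0, 72.5 and 73.3 and 101, 106 and 96.2, and after forskolin 84.3, 77.6 and 79.3, 55.5, 61.1 and 57.3 and 83.9, 87.9 and 94.4. NFIA raised Col5a1 at day 0 (0.76 ± 0.04) and the mutant raised it at day 7 (0.34 ± 0.05). The difference with NFIA at day 7 did not pass (-0.12, adjusted p = 0.060), and after forskolin NFIA-expressing cells were lower (-0.46 ± 0.06).

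Col5a2, which lies tail to tail with Col3a1 at a distance of 24614 nt, stood at 205, 196 and 201 FPKM in control cells at day 0, at 297, 290.1 and 276 with NFIA and at 201, 203 and 208 with the mutant. Its neighbor Col3a1 was lower with NFIA at that time, so the 2 genes differed from control in opposite directions. At day 7 Col5a2 stood at 159.8, 154 and 139.9, 88.8, 84.0 and 85.9 and 91.6, 80.8 and 83.8 FPKM, and after forskolin at 151, 129 and 147, 77.4, 79.6 and 78.0 and 90.4, 96.5 and 99.6. Both constructs were lower than control at day 7 (-0.80 ± 0.06 and -0.82 ± 0.06) and after forskolin (-0.85 ± 0.07 and -0.57 ± 0.07). The ratio of Col5a1 to Col5a2 at day 7 was 0.527 ± 0.0383 in control, 0.846 ± 0.0215 with NFIA and 1.19 ± 0.108 with the mutant, with no overlap between the 3 groups.

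**Figure D3:**
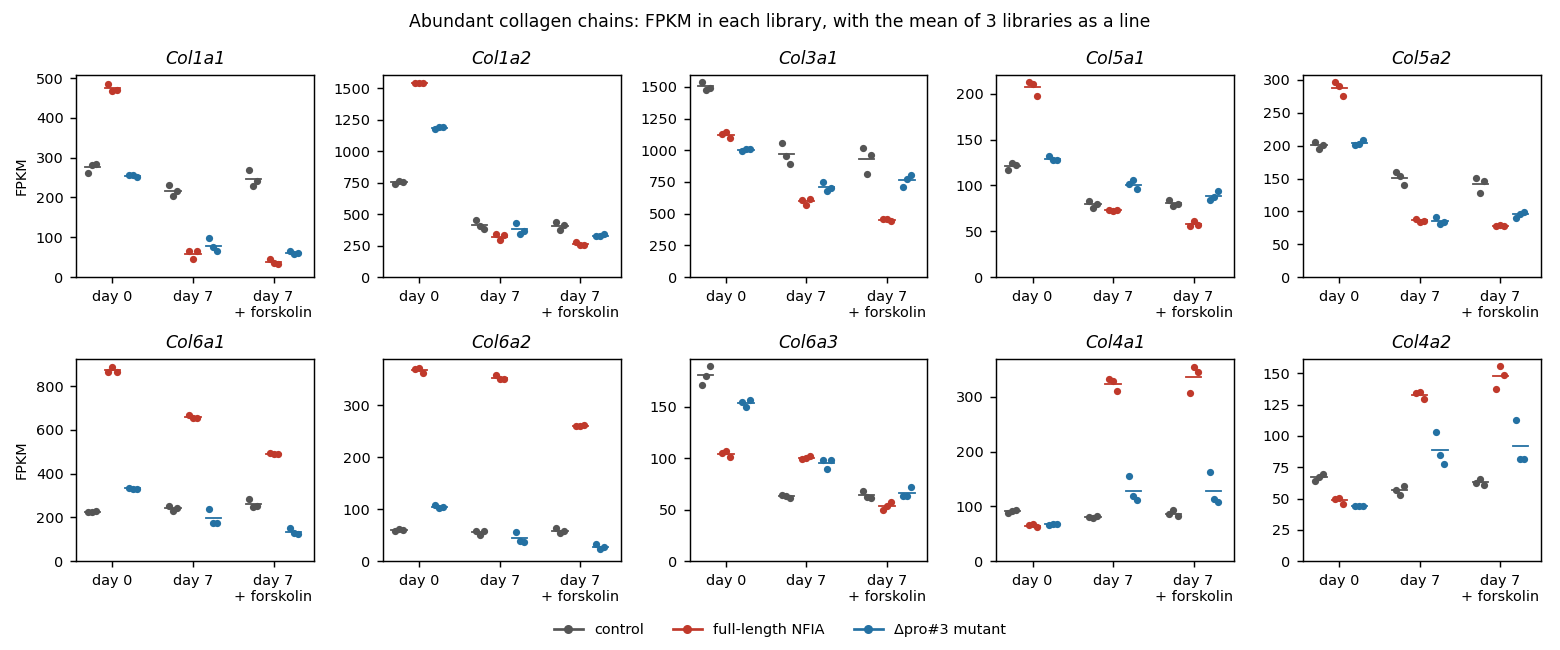
FPKM (y axis) of the 10 abundant heterotrimer and type III chains in each library, by time point (x axis); points are libraries, lines are means of 3. With NFIA (red), Col1a1 goes from 475 at day 0 to 58.5 at day 7, while Col4a1 goes from 65.0 to 324.

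Col5a3, another type V chain, followed another course. In control cells it was at 17.2, 18.5 and 17.8 FPKM at day 0 and at 2.82, 2.87 and 2.90 at day 7, so that it fell by 2.29 on the log2 scale. With NFIA it was at 35.2, 35.6 and 33.5 and then 34.0, 32.8 and 30.3 FPKM, and with the mutant at 43.1, 41.4 and 42.7 and then 16.1, 18.9 and 17.2. At day 7 both constructs were more than 3-fold above control, by 3.11 ± 0.07 and 2.25 ± 0.07, and after forskolin by 2.57 ± 0.14 and 2.36 ± 0.14. The forskolin-treated libraries held 2.73, 2.26 and 2.46 FPKM in control, 20.3, 19.97 and 18.9 with NFIA and 13.5, 16.0 and 22.3 with the mutant.

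Col2a1, the chain of type II collagen of cartilage, and Col11a1, a chain of type XI that is found with type II in cartilage, were among the largest rises with NFIA at day 0. Col2a1 stood at 7.62, 6.79 and 5.97 FPKM in those 3 libraries. Every one of the other 24 libraries was at 0.205 FPKM or less. Its log2 difference against control at day 0 was 2.93 ± 0.08 and the mutant did not raise it (0.04, adjusted p = 0.65). At day 7 and after forskolin its mean was below the filter, at most 0.150 FPKM.

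Col11a1 rose from 0.481, 0.543 and 0.632 FPKM in control libraries to 12.9, 12.4 and 11.8 with NFIA at day 0, a difference of 3.11 ± 0.06. With the mutant it stood at 0.918, 0.781 and 1.01 FPKM and rose by 0.29 ± 0.06. At day 7 control cells were highest, with 5.82, 5.02 and 5.93 FPKM in control, 2.63, 1.83 and 1.55 with NFIA and 0.929, 0.775 and 0.784 with the mutant. After forskolin the control libraries were at 9.63, 10.5 and 9.15, the NFIA libraries at 2.18, 1.97 and 1.91 and the mutant libraries at 2.13, 1.33 and 1.23. Both constructs were then more than 3-fold lower than control, at -1.83 and -2.09.

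Among the 5 cartilage markers listed, 2 passed the filter at day 0, and both were higher with NFIA. Comp, at 0.345 FPKM on average with the mutant, passed it through the NFIA libraries alone, so its rise was built into the filter. Sox9, the transcription factor that switches on Col2a1 in cartilage, stood at 11.1, 12.1 and 11.6 FPKM in control and 34.1, 33.2 and 32.9 with NFIA, and Comp, a cartilage matrix protein, at 0.0579 and 25.8 on average. Acan, which defines cartilage cells, was listed at 0 in all 3 NFIA libraries, as was Matn1, and Hapln1 was at most 0.0157 FPKM. The summed level of the 5 was 56.7 to 61.5 FPKM with NFIA and 11.1 to 12.2 in control libraries at day 0, and was still 38.3 to 39.9 with NFIA at day 7, when Col2a1 was near 0. The part of these genes in the result was not tested.

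Of the remaining fibril-forming chains, Col24a1 was lower than control with both constructs at all 3 time points, with log2 differences of -1.03, -1.41 and -1.12 with NFIA and of -0.51, -1.12 and -0.73 with the mutant. At each of the 3 it passed the filter through the control libraries alone, so these differences were built into the filter. Its highest group mean was 1.87 FPKM, in control cells at day 7. Col27a1 was lower with NFIA at day 0 (-0.38) and after forskolin (-0.37) but higher at day 7 (0.52). Col11a2 ranged between 0.467 and 1.80 FPKM as group means, and its differences with NFIA at day 0 (-0.10) and day 7 (0.02) did not pass, while it was lower than control with the mutant at day 7 (-0.35) and with both constructs after forskolin (-0.29 with NFIA and -0.27 with the mutant).

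**Figure D4:**
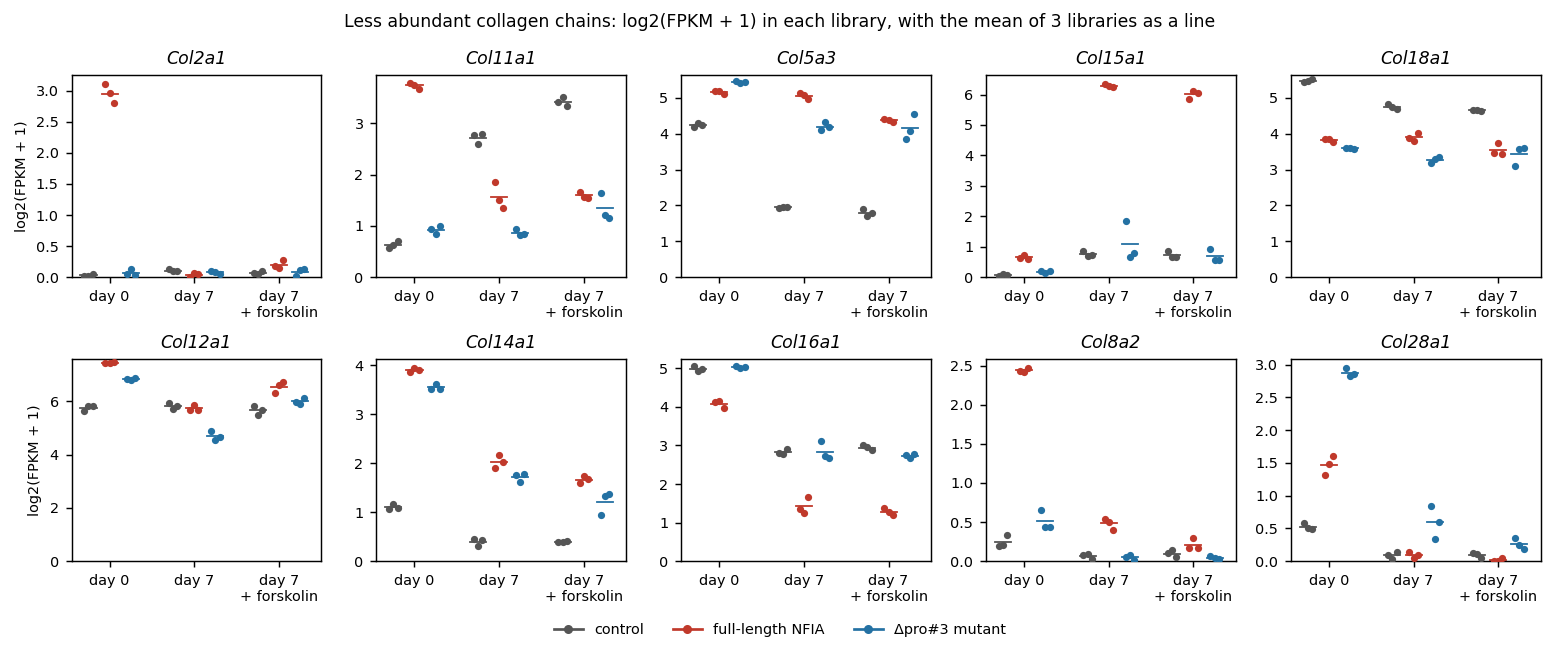
Log2(FPKM + 1) (y axis) of 10 less abundant chains in each library, by time point (x axis); points are libraries, lines are means of 3. Col2a1, Col11a1 and Col8a2 are high in the NFIA-expressing libraries (red) at day 0, and Col15a1 is high in those at day 7 and after forskolin.

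Type VI collagen is a heterotrimer of Col6a1, Col6a2 and a longer chain, of which Col6a3 alone passed the filter here. Col6a1 and Col6a2 lie in tandem on chromosome 10, 85161 nt apart, and both were higher with NFIA at all 3 time points. At day 0, Col6a1 stood at 225, 227 and 229 FPKM in control cells, 865, 888 and 865 with NFIA and 336, 329.8 and 331 with the mutant. By day 7 it was at 250.5, 231 and 245, 669.7, 652 and 653 and 239, 175 and 177, and after forskolin at 284, 249 and 251, 492, 489 and 488 and 150.4, 127 and 125. The NFIA libraries were above all libraries of both other groups at each time. Their log2 differences against control were 1.94 ± 0.03, 1.44 ± 0.11 and 0.91 ± 0.08.

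Col6a2 differed more than Col6a1. It stood at 57.9, 61.7 and 60.4 FPKM in control cells at day 0, 369.5, 372 and 362 with NFIA and 108, 102 and 104 with the mutant. On day 7 it was at 58.3, 50.5 and 57.3, 358, 351 and 351 and 55.5, 38.7 and 36.9, and after forskolin at 63.9, 54.3 and 58.2, 260.0, 260.5 and 262 and 33.4, 24.2 and 27.1. The differences with NFIA were 2.60 ± 0.03, 2.65 ± 0.13 and 2.13 ± 0.10, all more than 3-fold (adjusted p = 4.6e-13, 3.3e-08 and 1.1e-08).

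The mutant raised both chains at day 0, by 0.55 ± 0.03 for Col6a1 and 0.79 ± 0.03 for Col6a2. At day 7 its differences were -0.31 ± 0.11 and -0.36 ± 0.13, with adjusted p of 0.032 and 0.043. These 2 calls were lost with the median-ratio scaling (0.080 and 0.091) and without the filter, and also without control replicate 1 or 3 or mutant replicate 2 or 3 (0.080 to 0.114 for Col6a1 and 0.112 to 0.144 for Col6a2). For both chains the mutant overlapped control through replicate 1 alone, the library with the highest adipocyte marker sum. Without it the differences were -0.46 and -0.54. After forskolin both chains were lower than control with the mutant (-0.96 ± 0.08 and -1.04 ± 0.10).

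Col6a3 (chromosome 1), the third chain, did not follow the other two. At day 0 it stood at 171, 179.6 and 189.6 FPKM in control cells, 105, 107 and 102 with NFIA and 155, 150.0 and 157 with the mutant, and it was lower with both (-0.78 ± 0.04 and -0.23 ± 0.04). At day 7 it was at 64.7, 63.6 and 61.7, 99.3, 99.8 and 102 and 98.6, 89.3 and 98.1, higher with both (0.66 ± 0.05 and 0.58 ± 0.05). After forskolin the values were 68.5, 62.0 and 61.0, 49.6, 53.1 and 57.4 and 63.5, 63.7 and 72.2. The difference with NFIA there was -0.25, with an adjusted p of 0.0099 that became 0.44 with the median-ratio scaling.

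The ratios between the type VI chains differed with the construct. The ratio of Col6a1 to Col6a2 was 3.78 ± 0.101 in control cells at day 0, 2.37 ± 0.0261 with NFIA and 3.17 ± 0.0577 with the mutant. By day 7 it was 4.38 ± 0.163, 1.86 ± 0.00662 and 4.53 ± 0.243. The ratio of Col6a3 to Col6a1 was 0.795 ± 0.0327 in control cells at day 0 against 0.120 ± 0.00208 with NFIA. On day 7 it was 0.262 ± 0.0123 in control, 0.152 ± 0.00389 with NFIA and 0.493 ± 0.0733 with the mutant, with no overlap between the groups.

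Type IV collagen, the scaffold of basement membranes, is chiefly made of 2 chains of Col4a1 and 1 of Col4a2. The 2 genes lie head to head on chromosome 8 and are read in opposite directions. In the mm9 assembly Col4a1 is annotated at chr8:11198423-11312826 on the minus strand and Col4a2 at chr8:11312805-11449287 on the plus strand, so the gene models share 22 nt. Both starts therefore lie within 1 stretch of DNA, which is shown here because both genes were higher with both constructs at day 7. The RefSeq promoter windows, from 250 nt before the start to 50 nt after it, are given in the GRCm38.p6 assembly, Col4a1 at chr8:11312777-11313076 read on the minus strand and Col4a2 at chr8:11312555-11312854 read on the plus strand. They share 78 nt. Capitals mark TTGGC, the half-site of the sequence that NFI proteins bind, or GCCAA, its other strand.
Col4a1: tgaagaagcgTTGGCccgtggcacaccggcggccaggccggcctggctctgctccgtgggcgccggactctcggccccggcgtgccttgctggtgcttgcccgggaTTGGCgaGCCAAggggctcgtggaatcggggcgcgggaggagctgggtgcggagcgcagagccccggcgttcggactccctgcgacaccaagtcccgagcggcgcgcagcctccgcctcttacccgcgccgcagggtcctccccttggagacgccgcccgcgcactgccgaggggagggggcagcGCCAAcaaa
Col4a2: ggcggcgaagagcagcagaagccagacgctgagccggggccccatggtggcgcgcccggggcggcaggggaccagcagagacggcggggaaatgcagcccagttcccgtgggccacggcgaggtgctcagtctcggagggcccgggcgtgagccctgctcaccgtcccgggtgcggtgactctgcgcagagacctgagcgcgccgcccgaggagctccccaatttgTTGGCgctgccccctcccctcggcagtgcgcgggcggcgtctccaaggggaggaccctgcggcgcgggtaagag
The Col4a1 window holds TTGGC at 2 places and GCCAA at 2, and the Col4a2 window holds TTGGC at 1. The last GCCAA of the Col4a1 window and the TTGGC of the Col4a2 window are the same site, in the stretch that both windows share, read on opposite strands. The full palindromic motif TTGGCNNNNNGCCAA is in neither. Such short matches are common: 46.7% of all 32851 RefSeq windows hold the half-site on 1 strand or the other, as do 42.1% of the 38 windows of the 35 collagen chains that have one. The full motif is in 0.0365% of all windows and in 0 of the 38. A match is a description of the letters and says nothing of binding.

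At day 0, Col4a1 stood at 88.4, 92.4 and 93.0 FPKM in control cells, 65.5, 67.0 and 62.4 with NFIA and 66.2, 68.5 and 67.4 with the mutant. Col4a2 was at 63.9, 67.4 and 69.3, 49.8, 50.2 and 45.6 and 43.9, 43.9 and 44.2. Both chains were lower with both constructs (-0.48 and -0.46 with NFIA, -0.43 and -0.59 with the mutant). At day 7 this had turned around. Col4a1 was at 81.4, 78.9 and 82.0 FPKM in control, 333, 329 and 310.1 with NFIA and 156, 119 and 112 with the mutant, and Col4a2 at 56.6, 53.0 and 59.7, 134, 135 and 129 and 103, 84.9 and 77.6. The 3 groups did not overlap for either gene. NFIA-expressing cells exceeded control by 1.99 ± 0.10 for Col4a1 (adjusted p = 5.2e-08) and by 1.22 ± 0.09 for Col4a2 (adjusted p = 9.1e-07).

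The mutant gave a smaller rise of 0.65 ± 0.10 and 0.63 ± 0.09, and the direct difference between mutant and NFIA was -1.34 ± 0.10 for Col4a1 (adjusted p = 1.5e-06) and -0.59 ± 0.09 for Col4a2 (adjusted p = 0.00029). Replicate 1 of the mutant, with the highest adipocyte marker sum, was also the highest for both chains. Without it the differences between mutant and control were 0.51 and 0.52, and both still passed. After forskolin, Col4a1 was at 85.3, 92.8 and 82.5 FPKM in control, 308, 355 and 345 with NFIA and 163, 114 and 109 with the mutant, and Col4a2 at 62.4, 65.7 and 60.4, 137, 156 and 149 and 112, 81.9 and 81.9. Both were again higher with NFIA (1.94 ± 0.13 and 1.22 ± 0.11) and with the mutant (0.54 ± 0.13 and 0.53 ± 0.11, or 0.35 and 0.38 without replicate 1).

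The ratio of the pair stood apart in 2 of the 9 groups. The ratio of Col4a1 to Col4a2 FPKM lay between 1.34 ± 0.0273 (NFIA, day 0) and 1.53 ± 0.0271 (mutant, day 0) in the other 7 groups. In NFIA-expressing cells it was 2.49, 2.44 and 2.40 in the 3 libraries at day 7 and 2.24, 2.27 and 2.32 after forskolin. The lowest of these 6 values lay above every value of the other 21 libraries. Col4a1 thus exceeded its neighbor by more in those 2 groups, although both had risen.

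**Figure D5:**
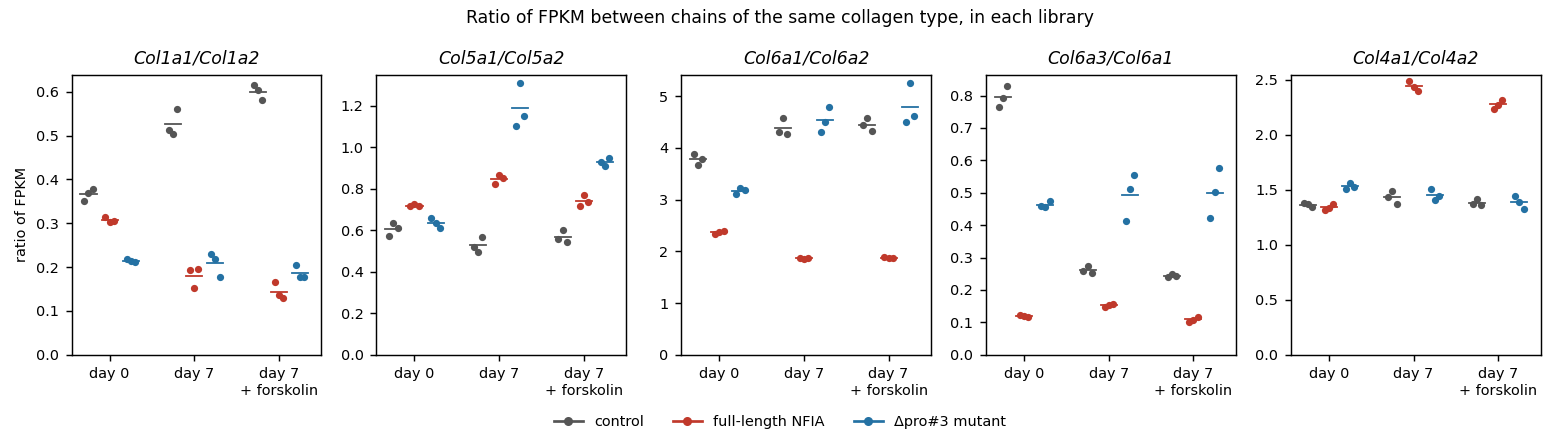
Ratio of FPKM (y axis) between chains of types I, V, VI and IV in each library, by time point (x axis); points are libraries, lines are means of 3. The NFIA-expressing libraries (red) stand apart in the ratio of Col6a1 to Col6a2 at all 3 times and in that of Col4a1 to Col4a2 at day 7 and after forskolin.

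Col4a5 on chromosome X, the other basement membrane chain tested, was highest with the mutant at day 0, at 34.8, 35.6 and 35.4 FPKM against 15.2, 14.0 and 15.3 in control and 18.8, 19.2 and 17.9 with NFIA. It rose by 1.20 ± 0.04 with the mutant and by 0.31 ± 0.04 with NFIA. Its head-to-head neighbor Col4a6, whose start is 1308 nt away, did not pass the filter and had group means of at most 0.357 FPKM.

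The multiplexins Col15a1 and Col18a1 both end in an anti-angiogenic fragment and lie in basement membranes, and with NFIA they differed from control in opposite directions at day 7 and after forskolin. Col15a1 (chr4:47221033-47326039 in mm9, plus strand) had the largest log2 difference of all chains on the scale of FPKM + 1. At day 7 it stood at 80.2, 76.5 and 74.4 FPKM with NFIA, against 0.827, 0.614 and 0.658 in control and 2.59, 0.566 and 0.733 with the mutant, whose highest value was again replicate 1. The log2 difference with NFIA was 5.52 ± 0.25 (adjusted p = 1.9e-08), a ratio of 110.1 between mean FPKM. By that ratio Col2a1 at day 0 and Col23a1 at day 7, whose control values rest on few fragments, differed more with NFIA. With the mutant it was 0.33 ± 0.25 (adjusted p = 0.30).

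After forskolin the NFIA libraries held 56.9, 68.9 and 66.0 FPKM, the control libraries 0.813, 0.577 and 0.577 and the mutant libraries 0.902, 0.469 and 0.481. The difference with NFIA was 5.29 ± 0.12. At day 0, all 9 libraries were at 0.656 FPKM or less and the chain did not pass the filter, although the NFIA libraries (0.550, 0.656 and 0.515) lay above the control libraries (0.0317, 0.0759 and 0.0504). The difference at day 7 moved with the adipocyte markers, of which 6 of 6 were more than 3-fold higher with NFIA, and with the myotube markers, of which 6 of 6 were more than 3-fold lower. Their part in the result was not tested.

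Col18a1 was lower with both constructs throughout. At day 0 it stood at 42.3, 43.0 and 45.1 FPKM in control cells, 13.5, 13.3 and 12.5 with NFIA and 11.2, 11.1 and 10.82 with the mutant, and fell by 1.65 and 1.89 on the log2 scale. It was the one chain more than 3-fold lower with NFIA at day 0, and likewise with the mutant. At day 7 the log2 differences were -0.85 ± 0.07 and -1.47 ± 0.07, and after forskolin -1.11 ± 0.12 and -1.23 ± 0.12.

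Of the fibril-associated collagens, Col14a1 and Col12a1, which coat type I fibers, were raised by both constructs at day 0. Col14a1 stood at 1.09, 1.25 and 1.13 FPKM in control cells, 13.6, 14.5 and 14.0 with NFIA and 10.4, 11.2 and 10.5 with the mutant, and rose by 2.80 ± 0.05 and 2.44 ± 0.05. The mutant gave no larger rise on this scale at that time, but the ratio of mean FPKM between mutant and control was larger for Col28a1, at 14.4 against 9.25 for Col14a1. By day 7 it had dropped in all 3 groups, to 0.367, 0.240 and 0.344, 2.76, 3.49 and 3.04 and 2.39, 2.05 and 2.43, and was still higher than control with both constructs (1.63 ± 0.09 and 1.32 ± 0.09).

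Col12a1 was at 48.7, 56.0 and 55.2 FPKM in control cells at day 0, 171, 172 and 175 with NFIA and 113, 112 and 117 with the mutant. The rise was 1.68 ± 0.05 with NFIA and 1.08 ± 0.05 with the mutant. At day 7 control and NFIA libraries overlapped (59.8, 51.8 and 55.6 and 50.6, 57.1 and 49.8), and the mutant libraries were lower (28.8, 22.4 and 24.1, a difference of -1.13 ± 0.09). After forskolin the order was different, with 55.7, 43.99 and 50.7 in control, 77.6, 95.9 and 105 with NFIA (0.87 ± 0.12) and 62.3, 59.3 and 69.7 with the mutant (0.34 ± 0.12).

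Col16a1 was lower with NFIA at every time point. It stood at 32.0, 29.7 and 30.4 FPKM in control cells at day 0, 16.5, 16.8 and 14.7 with NFIA and 32.3, 31.2 and 31.9 with the mutant. On day 7 it stood at 5.96, 5.88 and 6.46, 1.57, 1.37 and 2.15 and 7.66, 5.60 and 5.402, and after forskolin at 7.004, 6.71 and 6.42, 1.60, 1.44 and 1.29 and 5.73, 5.33 and 5.91. It fell with NFIA at day 0 (-0.90) and was lower at day 7 (-1.41) and after forskolin (-1.66). With the mutant it did not differ past the threshold at day 0 (adjusted p = 0.38) or at day 7 (adjusted p = 0.95), and differed by -0.21 after forskolin. Mutant-expressing cells exceeded NFIA-expressing cells by 0.95 ± 0.05, 1.42 ± 0.13 and 1.45 ± 0.07 at the 3 time points. Col20a1 stood at 4.65, 5.29 and 5.25 FPKM in control cells at day 7, at 1.72, 1.61 and 1.25 with NFIA and at 2.87, 3.43 and 3.02 with the mutant, lower with both (-1.27 ± 0.09 and -0.56 ± 0.09). Col19a1, which passed the filter in the day 7 fits alone, was lower with NFIA (-0.54) and higher with the mutant (0.47). It passed through the mutant libraries alone, so that the latter difference was built into the filter.

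The short-chain collagens Col8a1 and Col8a2 form a hexagonal network. Col8a2 was at 4.37, 4.36 and 4.53 FPKM with NFIA at day 0, against 0.146, 0.153 and 0.257 in control and 0.569, 0.357 and 0.356 with the mutant, a rise of 2.19 ± 0.07. Elsewhere its group means were at most 0.427 FPKM, and it was not tested at day 7. Col8a1 rose with both constructs at day 0, from 34.0 ± 1.23 FPKM in control to 46.6 ± 2.56 with NFIA and 75.4 ± 2.51 with the mutant.

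Among transmembrane collagens Col23a1 and Col25a1 passed the filter in a fit, and among chains outside these classes Col7a1 and Col28a1 did. Col23a1 reached 2.38, 2.65 and 2.66 FPKM with NFIA at day 7, against 0.0116, 0.0105 and 0.0151 in control, which rested on 3 fragments over the 3 control libraries, and 0.125, 0.0885 and 0.0798 with the mutant. Its log2 difference was 1.81 ± 0.08 with NFIA, and that with the mutant did not pass (adjusted p = 0.24). Col25a1, by contrast, was highest in control cells at day 7, at 2.35, 1.83 and 2.31 FPKM, and was lower with NFIA (-1.58) and with the mutant (-1.34). Both Col23a1 and Col25a1 passed the filter at day 7 through their high group alone, so their differences from it were built into the filter. Col28a1, a chain of nerve, was highest with the mutant at day 0, at 6.71, 6.11 and 6.25 FPKM against 0.498, 0.417 and 0.408 in control and 1.49, 1.79 and 2.05 with NFIA, a rise of 2.35 ± 0.07 with the mutant. Col7a1, the chain of anchoring fibrils, was lower with NFIA at day 7 (-0.84) and after forskolin (-0.84).

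Between day 0 and day 7 more chains fell than rose with each of the 3 constructs, control included. From day 0 to day 7, 6 chains rose and 15 fell of the 28 tested in control cells (background 36% and 42.7%), 6 rose and 15 fell with NFIA (background 33.2% and 46.5%), and 6 rose and 19 fell with the mutant (background 32.8% and 46.7%). The median log2 change of the chains was -0.21, -0.46 and -0.53, against -0.056, -0.11 and -0.11 over all genes. In control cells 2 rose and 2 fell more than 3-fold (background 3.65% and 3.05%): Col20a1 rose from 0.292 ± 0.0644 to 5.07 ± 0.357 FPKM and Col11a1 from 0.552 ± 0.0754 to 5.59 ± 0.497, while Col5a3 fell by 2.29 and Col16a1 fell by 2.16. With a pseudocount of 0.1, 3 rose and 5 fell more than 3-fold in control cells, and with limma-voom 6 rose and 7 fell.

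With NFIA, 2 rose and 9 fell more than 3-fold (background 5.38% and 4.71%). The 2 were Col15a1 (5.63 ± 0.20) and Col4a1 (2.30 ± 0.08). The 9 were Col1a1 (-3.02), Col2a1 (-2.92), Col16a1 (-2.67), Col1a2 (-2.26), Col11a1 (-2.17), Col8a2 (-1.96), Col14a1 (-1.88), Col5a2 (-1.73) and Col12a1 (-1.70). Of the 9, Col2a1 and Col8a2 passed the filter through the NFIA libraries of day 0 alone. With the mutant none rose and 6 fell more than 3-fold (background 3.91% and 2.93%), namely Col28a1, Col16a1, Col12a1, Col14a1, Col1a1 and Col1a2. The median-ratio scaling moved the log2 changes of all genes by a median of 0.14 in NFIA-expressing and 0.12 in mutant-expressing cells. With that scaling 8 chains rose and 15 fell with NFIA, 2 and 7 of them more than 3-fold, and 6 rose and 19 fell with the mutant, 0 and 4 of them more than 3-fold.

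Whether the change over time differed between constructs was tested as an interaction. With NFIA, 24 of the 28 chains changed differently than in control cells, 8 upwards and 16 downwards (background 31.1% and 40.1%, median -0.44 against -0.084 over all genes), 4 and 5 of them by more than 3-fold (background 4.53% and 3.09%). The 4 were Col15a1, Col4a1, Col5a3 and Col4a2, and the 5 were Col11a1, Col2a1, Col1a1, Col8a2 and Col12a1. Of the 5, Col2a1 and Col8a2 passed the filter through the NFIA libraries of day 0 alone. With the mutant 23 differed, 7 upwards and 16 downwards (background 18.9% and 25.9%, median -0.40 against -0.053 over all genes), with Col11a1, Col12a1 and Col28a1 downwards by more than 3-fold (background 0.822%). With limma-voom 5 chains were called there. The call of Col28a1 held with a pseudocount of 0.1 and was lost with limma-voom. The chain went from 0.441 to 0.0637 FPKM in control and from 6.36 to 0.524 with the mutant, and limma-voom on fragments gave a difference of -1.03 (adjusted p = 0.15).

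Within each construct, forskolin-treated cells were compared with untreated cells of day 7. No chain responded by more than 3-fold with limma with any of the 3 constructs, and none did with limma-voom on fragment counts, while 5 (control), 16 (NFIA) and 12 (mutant) of 27 chains had an unadjusted p under 0.05. At an adjusted p under 0.05, 1 rose and 2 fell in control cells (background 7.05% and 13.5%), 1 rose and 15 fell with NFIA (background 13.9% and 41.5%), and 3 rose and 6 fell with the mutant (background 11.9% and 23.9%). The background for a more than 3-fold change was 0.392%, 0.743% and 0.588%. The median response of the chains was 0.00080 in control, -0.33 with NFIA and -0.092 with the mutant, against -0.047, -0.15 and -0.059 over all genes. With NFIA the median-ratio scaling moved the log2 responses of all genes by a median of 0.13. With that scaling 2 rose and 12 fell with NFIA, and 4 rose and 5 fell with the mutant. In control cells Col11a1 rose (0.71 ± 0.13), and Col8a1 (-0.51) and Col24a1 (-0.35) fell. Col24a1 passed this fit through the untreated control libraries alone, so its fall was favored by the filter.

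Some responses differed from that of control cells. With NFIA, the log2 response was higher than in control cells for 1 chain and lower for 10 (background 9.16% and 21.5%, median -0.30 against -0.10 over all genes), and with the mutant 1 and 4 (background 2.47% and 2.5%, median -0.10 against -0.0087 over all genes). Col12a1 was the 1 in both. It went from 52.5 ± 3.97 to 92.9 ± 14.0 FPKM with NFIA and from 25.1 ± 3.31 to 63.8 ± 5.37 with the mutant, against 55.7 ± 4.04 and 50.1 ± 5.88 in control. Its response differed from that of control by 0.96 ± 0.16 (adjusted p = 0.00032) and 1.47 ± 0.16 (adjusted p = 4.8e-05). Among those with a lower log2 response, Col6a3 fell by 0.90 with NFIA and fell by 0.51 with the mutant, while it was at 63.3 ± 1.54 and 63.8 ± 4.07 FPKM in control cells, and its response differed from that of control in both (-0.91 ± 0.09 and -0.52 ± 0.09). No response differed by more than 3-fold with limma at either construct (background 0.572% with NFIA and 0.212% with the mutant), where 16 (NFIA) and 11 (mutant) chains had an unadjusted p under 0.05, while limma-voom gave 1 such chain with NFIA and 0 with the mutant.

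Collagen chains need a set of enzymes and chaperones before they leave the cell, and further enzymes outside it. Of 46 such genes and receptors found in the tables, 20 act in folding, hydroxylation and export and passed the filter at day 0. With NFIA, 17 of these rose and 1 fell at day 0 (background 37.7% and 35.6%, and the median log2 difference was 0.53), while with the mutant 7 rose and 7 fell (background 32.5% and 29.7%, median -0.061), a share near that of all genes. P3h2, a prolyl 3-hydroxylase, rose from 1.69 ± 0.221 to 16.0 ± 0.990 FPKM with NFIA (2.66 ± 0.08) and was at 1.28 ± 0.208 with the mutant. P4ha3, a subunit of the prolyl 4-hydroxylase that stabilizes the helix, rose from 7.48 ± 0.549 to 32.7 ± 0.887 FPKM with NFIA (1.99 ± 0.05) and to 17.8 ± 0.326 with the mutant (1.15 ± 0.05). At day 7, 7 were higher and 7 lower with NFIA, near the share of all genes (background 31.3% and 41.1%). By more than 3-fold, P3h2 was higher and P4ha3 and Tmem38b were lower than control (background 4.87% and 3.3%). Tmem38b, an ion channel of the endoplasmic reticulum, was at 15.6 ± 0.708 FPKM against 74.8 ± 4.14 in control (-2.19 ± 0.05).

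Of 12 processing and cross-linking genes tested at day 0, 6 rose and 5 fell with NFIA (background 37.7% and 35.6%), and 6 rose and 6 fell with the mutant (background 32.5% and 29.7%). Lox, lysyl oxidase, which starts the cross-linking of fibers, rose from 112 ± 6.02 to 706 ± 12.8 FPKM with NFIA (2.65 ± 0.04) and to 346 ± 1.79 with the mutant. Pcolce2, an enhancer of the protease that trims procollagen, rose from 13.5 ± 0.304 to 109 ± 2.96 and 76.8 ± 1.17 FPKM and was still higher with both constructs at day 7 (2.78 and 2.11). Adamts14, a procollagen N-protease, fell by 2.75, and the cross-linkers Tgm2 and Loxl2 fell by 2.61 and 1.83. At day 7 Loxl1 was lower with NFIA (-2.04) and Loxl2 higher with the mutant (1.72). Tll1, a protease of the same family as Bmp1, responded to forskolin in mutant-expressing cells, from 0.246 ± 0.112 to 5.48 ± 0.323 FPKM, and this response differed from that of control (2.17 ± 0.11, adjusted p = 3.4e-09). Whether Tll1 passed the filter through this high group alone was not examined, so the response is given as a description.

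Of 7 receptors tested at day 0, 3 rose and 3 fell with NFIA and 3 rose and 2 fell with the mutant, which is near the share of all genes (background 37.7% and 35.6% with NFIA, 32.5% and 29.7% with the mutant). The integrin chain Itga1, a receptor for types I and IV, rose from 0.0757 ± 0.0173 to 8.05 ± 0.284 FPKM with NFIA (3.07 ± 0.06), and Itga10, a chain of another collagen-binding integrin, fell from 13.7 ± 0.776 to 0.502 ± 0.0641 (-3.29 ± 0.07) and from the same level to 1.74 ± 0.236 with the mutant (-2.43 ± 0.07).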

How the data were processed

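RNA of 27 C2C12 libraries, 3 for each of 9 groups, was poly(A)-selected and prepared with a stranded kit. The authors aligned the reads to mm9 with STAR 2.5.3a, kept uniquely aligned reads, counted those on the strand of each gene and deposited FPKM values. The annotation is not given in the sources used here. The deposited FPKM were whole multiples of the value of 1 fragment in 100% of cases (values under 2000 fragments, within 0.01 of a fragment), from which fragment counts and depth (9567769 to 27230965 fragments, median 17707223) were recovered. These counts served for shares and for limma-voom, and counting error is relatively largest in chains of few fragments.

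Groups came from the sample titles. For each time point the 9 libraries were fitted with limma 3.58.1 (R 4.3.3, with a mean-variance trend) on log2(FPKM + 1), after a filter on a mean of 0.5 FPKM, and day 7 against day 0 and forskolin responses were fitted on 18 libraries with interactions. P-values were Benjamini-Hochberg adjusted over all genes of a comparison, with thresholds of 0.05 and 3-fold. The fits were tested on simulated data. Collagen shares were compared by exact permutation in Python 3.11.15 with scipy 1.17.1. Values per library were given for Col1a1, Col1a2, Col3a1, Col4a1, Col4a2, Col5a1, Col5a2, Col6a1, Col6a2 and Col6a3 whatever their result, and for up to 8 chains per direction and comparison with the largest more than 3-fold changes, a mean of 1 FPKM or more and no overlap between groups. The remaining tested chains were named outside this rule, with their values seen, so that each is accounted for. Of the biosynthesis list, at most the 3 largest more than 3-fold changes per role and comparison were named. The members and all gene lists (chain classes, biosynthesis genes, cell type markers) were chosen with earlier results of these data known. Pseudocount, filter, scaling, trend, 1 fit of all samples, limma-voom, a replicate block and leaving out each library were varied. Promoters came from RefSeq (GRCm38.p6), 35 of 44 chains matched, and gene positions from the NCBIM37 (mm9) annotation.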

Additional observations from a re-analysis of the deposited data

Results flagged for a closer look

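For 12 results the change from day 0 to day 7 on the log2(FPKM + 1) scale differed between a construct and control by more than 3-fold, tested as an interaction with limma over 18 libraries (n = 3 per group). Relative to control cells, NFIA-expressing cells gained Col15a1 (4.94, adjusted p = 1.2e-10), Col4a1 (2.47, adjusted p = 1.0e-11), Col5a3 (2.18, adjusted p = 2.8e-13) and Col4a2 (1.68, adjusted p = 5.8e-10). Of these, Col15a1 and both type IV chains rose with NFIA itself, whereas Col5a3 fell in control cells (-2.29) and changed by -0.10 with NFIA (adjusted p = 0.083).

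Relative to control, NFIA-expressing cells lost Col11a1 (-4.26, adjusted p = 2.0e-13), Col2a1 (-2.99, adjusted p = 1.6e-13), Col1a1 (-2.67, adjusted p = 1.4e-09), Col8a2 (-1.78, adjusted p = 8.1e-11) and Col12a1 (-1.76, adjusted p = 4.8e-10). Of these, Col2a1 and Col8a2 passed the filter through the NFIA libraries of day 0 alone, so their losses were built into the filter and are descriptions. Col11a1 moved in opposite directions, with 2.08 in control and -2.17 with NFIA. In mutant-expressing cells the difference from control was -2.14 for Col11a1 (adjusted p = 4.9e-09), -2.21 for Col12a1 (adjusted p = 1.8e-10) and -1.85 for Col28a1 (adjusted p = 2.5e-08). For Col28a1, limma-voom gave -1.03 with an adjusted p of 0.15.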

How the results depend on the processing

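None of the 194 differences of the chains named by rule changed sign under any alternative run, and 18 lost significance under at least 1, of which 11 did so without 1 library. Calls of more than 3-fold depend on how low chains are treated. With a pseudocount of 0.1 they numbered 12 (NFIA against control) and 5 (mutant against control) at day 7, 13 and 5 after forskolin, 8 for mutant against NFIA after forskolin, 8 for control from day 0 to day 7, and 1 for the forskolin interaction with NFIA. With limma-voom on fragments the same comparisons gave 12, 6, 13, 6, 9, 13 and 1, mutant against NFIA at day 7 gave 8, and the mutant's interaction over time gave 5. With a filter at a mean of 5 FPKM fewer chains were tested. Then 5 (NFIA against control) and 1 (mutant against NFIA) were called at day 0, 1 for mutant against control at day 7, 2 for control over time and 1 for the mutant's interaction. The counts at an adjusted p under 0.05 fell to 13, 13 and 14 at day 7 and 14, 13 and 14 after forskolin (NFIA against control, mutant against control, mutant against NFIA), 1 for forskolin in control, 13 over time in control and with NFIA, and 15 for each interaction over time. In 1 fit of all 27 libraries, 17 and 8 forskolin interactions (NFIA and mutant) passed, and without 1 library those of the mutant ranged from 3 to 7.

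The difference in collagen share between forskolin-treated NFIA-expressing and control cells was -0.0327 percentage points. It was 0.00122 as a share of summed FPKM, and it ranged from -0.0915 to 0.0229 without 1 library. The forskolin response of the share ranged from -0.0576 to 0.0568 in control and from -0.0740 to 0.0244 with the mutant without 1 library. Replicates of the same number did not deviate together (mean r of 0.00825, -0.0362 and -0.00061 at the 3 time points), so the numbers do not pair the samples. With the replicate number as a block, 35 of 38 counts were equal to those without it, for example 8 and 23 for NFIA against control at day 0, and the others were 21, 11 and 13 in place of 22, 9 and 11. All 194 single differences kept their side of the threshold. Chains of low level are limited by depth, as in Col23a1 and Col2a1 in control cells, which rest on few fragments.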
